A study of Mus musculus with 12 samples.

Results

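Transcripts of red cells and platelets were followed in the thoracic aorta of 12 male ApoE-/- mice. The genes were chosen by name, as 14 erythroid and 16 platelet genes, and 28 of these 30 symbols had a row among the 25284 genes of the raw count table. Ahsp and Mrvi1os had none. All 12 mice lacked apolipoprotein E in every tissue, were on a C57BL/6 background, received a high fat and cholesterol-rich diet and were 18 weeks old at the end. The 6 AZ6983 mice, called A1 to A6 here, received an agonist of the α7 nicotinic acetylcholine receptor (α7nAChR) from a subcutaneous osmotic minipump, 50 µmol/kg each day over 8 weeks. The 6 control mice, C1 to C6, carried the same kind of pump filled with vehicle, a cyclodextrin solution in saline. The numbers name mice and give no order or pairing. The column used for A1 shows 3 of the 4 digits of its mouse number, so values without A1 are given beside the results that turn on it.

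Mature red cells of mice have no nucleus and carry only RNA made earlier in the marrow, most of it globin mRNA and most of it in young cells, the reticulocytes. Platelets also lack a nucleus and carry RNA that was packed into them by their parent cell, the megakaryocyte. Platelets stick to an injured or plaque-bearing wall through surface receptors for von Willebrand factor and collagen, and then release chemokines from their granules. An aorta taken for RNA can hold both cell types in blood left in its lumen, in clots or on the wall. In RNA from whole tissue, fewer cells of a type and less RNA per cell cannot be told apart.

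Depth was 23810036 to 35864666 counts on genes per mouse. Levels are given as CPM, the usual depth-scaled count, over the genes tested and after TMM normalization. Scores are means of log2 CPM with a prior count of 2. A gene entered the test if at least 6 mice reached 0.359 CPM, which left 15857 genes. The erythroid list kept 8 of its 13 genes, namely Hbb-bs, Hbb-bt, Hba-a1, Hba-a2, Alas2, Slc4a1, Epb42 and Bpgm. Klf1, Gata1, Rhag, Kel and Ermap were under the filter. The platelet list kept all 15, but Gp1ba reached that level in 0 of 6 controls and in 6 of 6 AZ6983 mice, so it passed through the AZ6983 group alone. Smooth muscle genes were tested in 8 of 8 cases and endothelial genes in 10 of 10, and passing the filter does not by itself identify the tissue as aorta. Apoe had 117 to 306 counts in controls and 214 to 311 in AZ6983 mice, and counts per gene do not show whether these lie outside the deleted part. Chrna7, the gene of the α7 subunit, had 27 to 114 counts in controls and 19 to 76 after AZ6983. Its fitted log2 change was -0.62 ± 0.42 (SE, n = 6 per group, edgeR adjusted p = 0.591).

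Promoter sequences are shown first, because red cells and platelets are made in sister lineages that share the factor GATA1. RefSeq promoters of 300 bases, 250 before and 50 after the start of transcription (GRCm38.p6), were on hand for 25 of the 28 genes, 12 erythroid and 13 platelet. Slc4a1, Rgs18 and Nfe2 had no entry. Each motif was searched on both strands and independently of the others. The GATA motif, AGATAA or TGATAA, was in 9 of 12 erythroid and 5 of 13 platelet windows, and in 18.6% of the 32851 promoters. ACACCC, the core of the CACC box that KLF1 recognizes, was in 4 of 12 erythroid windows, among them Hbb-bs, Hbb-bt and Klf1 itself, in 2 of 13 platelet windows, and in 16.0% of all. GGAAGT, a core of ETS factor sites, was in 1 of 12 erythroid windows, in 8 of 13 platelet windows and in 23.8% of all. These matches are descriptions of the windows and not sites of binding.

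The α-globin window shown is that of Hba-a2, which shares a run of 297 bases with the window of Hba-a1. The platelet windows shown are those of 3 chains of the von Willebrand factor receptor and of the 2 neighbouring chemokine genes, whose values are set side by side. Capitals mark GATA and ETS motifs on either strand (for Hba-a2, GATA and ACACCC), and each sequence ends at or just before the start of transcription. They lie at chr11:32296292-32296488 (Hba-a2, plus strand), chr11:70639002-70639121 (Gp1ba, plus), chr16:30310782-30310901 (Gp5, minus), chr6:87777950-87778069 (Gp9, plus), chr5:90768398-90768517 (Ppbp, plus) and chr5:90772315-90772434 (Pf4, plus).
Hba-a2: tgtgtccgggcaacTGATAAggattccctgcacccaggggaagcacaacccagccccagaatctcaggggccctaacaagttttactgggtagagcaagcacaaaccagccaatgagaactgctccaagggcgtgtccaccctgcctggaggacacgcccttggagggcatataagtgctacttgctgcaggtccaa
Gp1ba: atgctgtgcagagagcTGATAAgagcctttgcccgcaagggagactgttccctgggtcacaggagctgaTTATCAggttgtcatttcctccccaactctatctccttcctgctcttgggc
Gp5: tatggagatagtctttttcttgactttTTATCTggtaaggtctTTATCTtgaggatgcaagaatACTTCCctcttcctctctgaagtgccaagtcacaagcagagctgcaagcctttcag
Gp9: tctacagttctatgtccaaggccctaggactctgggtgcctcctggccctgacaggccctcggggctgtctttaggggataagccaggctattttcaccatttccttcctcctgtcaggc
Ppbp: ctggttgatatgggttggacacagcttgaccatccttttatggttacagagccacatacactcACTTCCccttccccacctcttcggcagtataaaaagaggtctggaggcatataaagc
Pf4: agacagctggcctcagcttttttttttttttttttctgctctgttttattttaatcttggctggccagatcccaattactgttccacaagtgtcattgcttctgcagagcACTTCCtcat
Hba-a2 holds 1 GATA motif, Gp1ba holds one on each strand and Gp5 a pair close together with an ETS motif after them. Gp9 holds neither motif in the stretch shown. The α-globin genes are at chr11:32283511-32284465 and chr11:32296489-32297298, and the β-globin genes at chr7:103812524-103813996 (Hbb-bt) and chr7:103826534-103828096 (Hbb-bs), in GENCODE M21 on GRCm38.

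Red cell transcripts varied widely from mouse to mouse and moved together. The 4 adult globins, the chains of haemoglobin, had summed levels of 522 to 3246 CPM in controls and 439 to 5051 CPM in AZ6983 mice. Hbb-bs, the more abundant β chain, stood at 1713, 496, 375, 2325, 829 and 410 CPM in C1 to C6 and at 3550.2, 773, 2702, 1868, 294 and 347 CPM in A1 to A6. A1, A3, C4, A4 and C1 were high, the others were low, and the groups overlapped throughout.

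Hba-a1, an α chain, stood at 288, 109.6, 74.3, 459, 196 and 97.9 CPM in C1 to C6 and at 762, 168, 423, 379, 79.0 and 62.5 CPM in A1 to A6. Hba-a2, its near copy, stood at 125, 34.8, 30.1, 181, 72.2 and 38.3 CPM in controls and at 300.4, 56.3, 228, 161, 25.8 and 25.1 CPM in AZ6983 mice. Hbb-bt, the minor β chain, stood at 224, 56.3, 42.8, 280.1, 102 and 60.2 CPM in controls and at 438, 84.8, 352, 251, 39.3 and 49.0 CPM in AZ6983 mice. The same 5 mice led in each of these 3 genes.

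For every 100 counts of Hbb-bs a mouse had 10.96 to 14.7 of Hbb-bt, 15.7 to 26.8 of Hba-a1 and 7.02 to 9.34 of Hba-a2, although Hbb-bs itself spanned 12.1-fold. The split between near copies is uncertain. Of the windows of 75 bases, the read length, 67.9% of the Hba-a1 transcripts occur also in Hba-a2, 84.6% the other way, 51.5% of Hbb-bs in Hbb-bt and 56.6% of Hbb-bt in Hbb-bs. Such reads can end among those that fit more than 1 place, which were 18.1% to 23.2% of the reads in the table.

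Alas2, the erythroid enzyme that starts haem synthesis, followed the globins closely. It stood at 116, 35.0, 26.4, 162, 56.5 and 29.8 CPM in C1 to C6 and at 225, 54.6, 165, 129.9, 21.6 and 30.2 CPM in A1 to A6. Its ratio to Hbb-bs was 6.12 to 8.71 per 100 counts, and Pearson's r with Hbb-bs over 12 mice on the log2 scale was 0.997, as a description. Bpgm, the enzyme that makes 2,3-bisphosphoglycerate, varied less, from 26.1 to 100.03 CPM, and its ratio to Hbb-bs ran from 2.82 in A1 to 8.88 in A5.

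Slc4a1, the band 3 anion exchanger of the red cell membrane, stood at 3.63, 1.94, 1.55, 6.25, 3.33 and 4.05 CPM in controls and at 11.2, 2.52, 7.53, 13.8, 2.12 and 3.24 CPM in AZ6983 mice. A4 led here and not A1. Epb42, protein 4.2 of the same membrane complex, ran from 0.395 to 2.01 CPM in controls and from 0.216 to 3.06 CPM in AZ6983 mice, also with A4 on top. Per 100 counts of Hbb-bs, Slc4a1 spanned 4.66-fold and Epb42 6.96-fold over the mice, against 1.33-fold to 1.71-fold for the other globins.

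The genes that mark nucleated red cell precursors were near the floor. Klf1, the master factor of globin genes, had 0, 6, 1, 2, 2 and 2 counts in C1 to C6 and 5, 2, 1, 6, 0 and 1 counts in A1 to A6. Rhag, of the Rh complex, had 1 to 10 counts, Kel, of the Kell blood group, 0 to 12, and Ermap, another erythroid surface protein, 2 to 10. Gata1, a factor of erythroid cells, megakaryocytes and mast cells, had 0, 2, 0, 5, 1 and 2 counts in C1 to C6 and 7, 1, 22, 11, 1 and 4 counts in A1 to A6. Its 22 counts in A3 were the highest value, while Klf1 had 1 count in that mouse.

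Per kilobase of transcript the median level over the 12 mice was 1044 CPM for Hbb-bs, 224 for Hba-a1, 133 for Hbb-bt and 96.3 for Hba-a2. Alas2 followed at 23.1 CPM per kilobase, Bpgm at 10.5, Slc4a1 at 0.711 and Epb42 at 0.132. Among the platelet genes Pf4 came first at 26.5 CPM per kilobase, with Ppbp at 3.88, P2ry12 at 2.27 and Rgs18 at 1.58. Alas2 overlaps Apex2 and P2ry12 overlaps Med12l, each on the other strand, and Gp1bb overlaps Sept5 and Clec1b overlaps Clec9a, each on the same strand. Reads of these pairs may not have been fully separated.

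**Figure D1:**
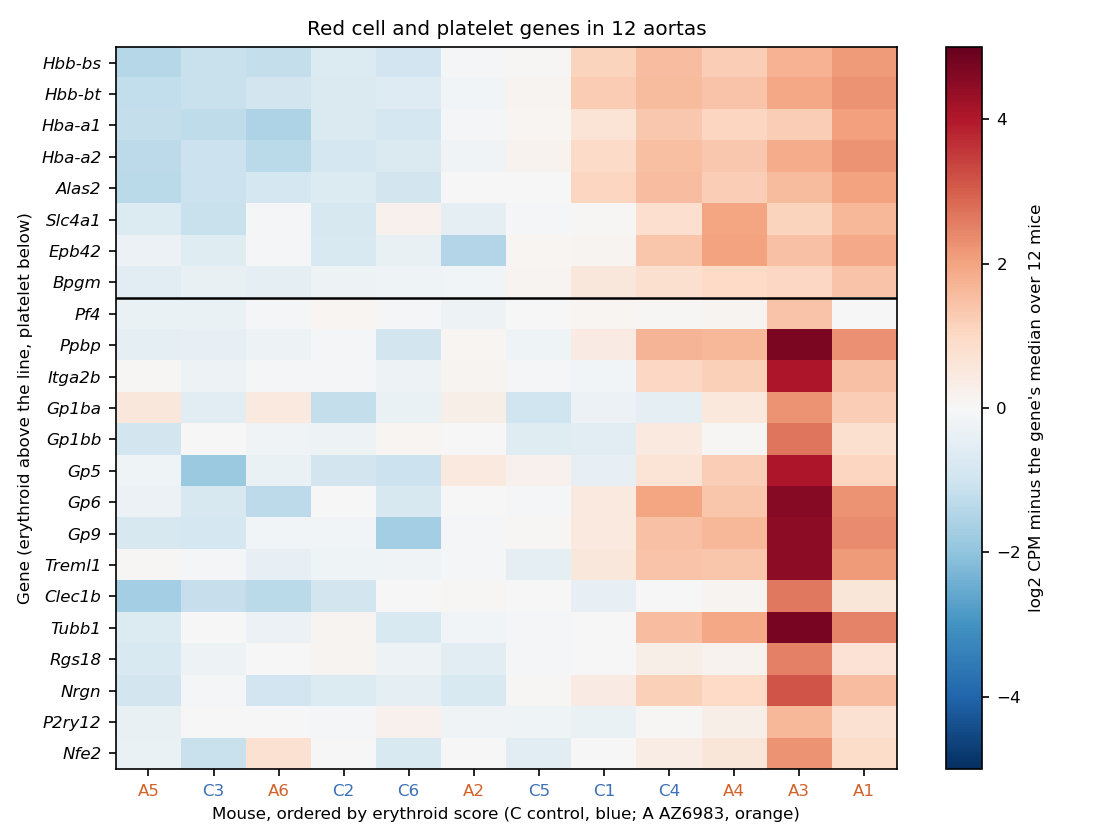
Each cell is the log2 CPM of 1 gene in 1 mouse minus that gene's median over the 12 mice, with mice ordered by erythroid score (controls blue, AZ6983 orange). The 8 erythroid genes deepen together from left to right, and the 15 platelet genes are all highest in A3.

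The platelet genes had a different leader. All 15 platelet genes were highest in A3, at 2.68-fold (Pf4) to 28.1-fold (Tubb1) of the median of the other 11 mice, with a median of 9.66-fold. A1 was highest in 7 of the 13 erythroid genes and had a median of 2.92-fold over the platelet genes. In A3 the erythroid genes tested were at 2.26-fold to 4.16-fold of the other mice.

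Ppbp, the precursor of the granule chemokine CXCL7, stood at 5.65, 3.95, 3.17, 13.8, 3.57 and 2.21 CPM in C1 to C6 and at 20.6, 4.46, 110.4, 13.4, 2.94 and 3.54 CPM in A1 to A6. A3 was highest, A1, C4 and A4 came next, and A2, A5 and A6 lay among the controls. Pf4, the chemokine CXCL4 encoded next to it at chr5:90772435-90773383, is also made by some tissue macrophages. It stood at 20.4, 20.2, 15.3, 19.6, 19.0 and 18.0 CPM in controls and at 19.2, 16.0, 51.0, 20.9, 14.95 and 18.3 CPM in AZ6983 mice. Outside A3 it was nearly level, and A1, with a high Ppbp, had Pf4 at 1.01-fold of the median of the others.

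Itga2b, the αIIb chain of the fibrinogen receptor, stood at 3.14, 3.28, 2.86, 7.11, 3.29 and 2.89 CPM in C1 to C6 and at 9.62, 3.78, 57.2, 7.93, 3.60 and 3.17 CPM in A1 to A6. Tubb1, the β1-tubulin of the platelet's marginal band, stood at 1.88, 2.06, 1.86, 5.54, 1.73 and 1.09 CPM in controls and at 10.7, 1.69, 52.2, 7.45, 1.14 and 1.53 CPM in AZ6983 mice. Treml1, a receptor of platelet granule membranes, stood at 0.732, 0.395, 0.448, 1.38, 0.312 and 0.408 CPM in controls and at 2.26, 0.432, 12.1, 1.36, 0.490 and 0.336 CPM in AZ6983 mice. In all 3 genes A3 stood far above the rest, A1 was second and A4 and C4 came next, in either order.

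Nfe2, the factor that drives the last steps of platelet formation, had lower and more even levels. It stood at 0.662, 0.672, 0.276, 0.893, 0.451 and 0.374 CPM in controls and at 1.34, 0.683, 3.53, 1.06, 0.531 and 1.19 CPM in AZ6983 mice, and 4 of the 6 AZ6983 mice were above every control. Like Pf4 and P2ry12, Nfe2 was treated here as a gene that other cells can share. A6, 1 of those 4 mice, ranked 8 by platelet score and had the most counts of the neutrophil gene S100a8, 2257. The part of other cells in Nfe2 was not tested. Gp6, the collagen receptor, ran from 0.238 to 2.05 CPM in controls and from 0.149 to 12.6 CPM in AZ6983 mice. Clec1b, the receptor CLEC-2, ran from 1.28 to 2.98 and from 0.858 to 18.5 CPM. P2ry12, the ADP receptor, which macrophages of some tissues share, ran from 4.603 to 6.80 and from 4.45 to 18.6 CPM. Rgs18, a brake on G protein signals in platelets, ran from 2.69 to 3.91 and from 1.88 to 18.7 CPM, and Nrgn, a calmodulin-binding protein, from 0.633 to 2.53 and from 0.522 to 9.99 CPM. In each of these 5 genes the lowest AZ6983 mouse was below every control.

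**Figure D2:**
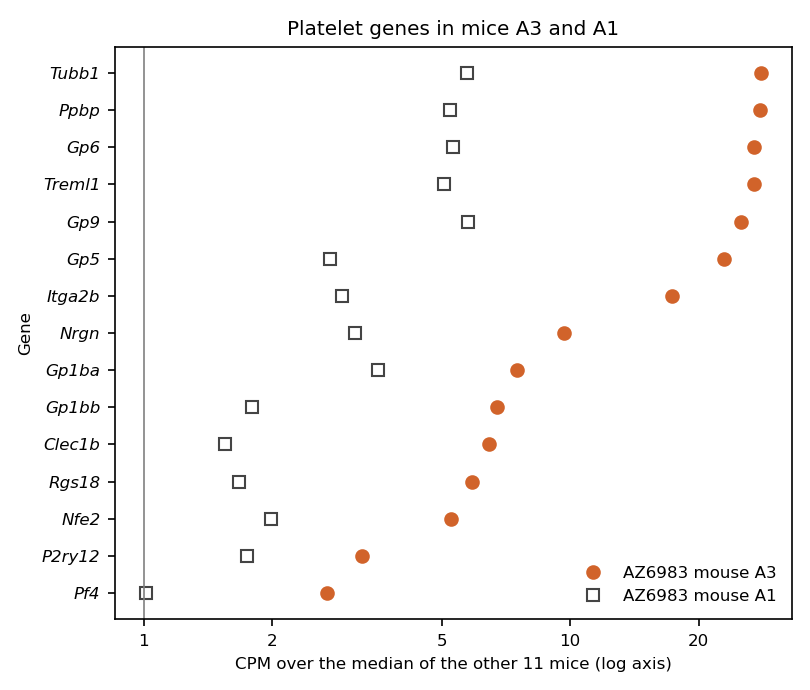
The level of each platelet gene in mouse A3 (filled circles) and mouse A1 (open squares) divided by the median of the other 11 mice, on a log axis. A3 runs from 2.68-fold for Pf4 to 28.1-fold for Tubb1, and A1 from 1.01-fold to 5.77-fold.

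The erythroid score, the mean log2 CPM of the 8 tested erythroid genes, was 6.01, 4.58, 4.31, 6.60, 5.36 and 4.72 in C1 to C6 and 7.24, 4.96, 6.77, 6.68, 4.27 and 4.46 in A1 to A6. The platelet score, the same over 15 genes, was 0.754, 0.449, 0.226, 1.52, 0.535 and 0.248 in controls and 2.10, 0.667, 4.04, 1.62, 0.260 and 0.459 in AZ6983 mice. In each score A1, A3 and A4 were above every control and A2, A5 and A6 were not. The mice with high erythroid scores had high platelet scores. As a description, Pearson's r was 0.792 and Spearman's rho 0.923 over 12 mice, which share library, depth and tissue between the 2 scores. Without A1 and A3, the 2 mice farthest from the median erythroid score, r was 0.933, and without A3 alone it was 0.952. Within the controls r was 0.922. Within the AZ6983 mice it was 0.797, and 0.997 over the 5 without A3.

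**Figure D3:**
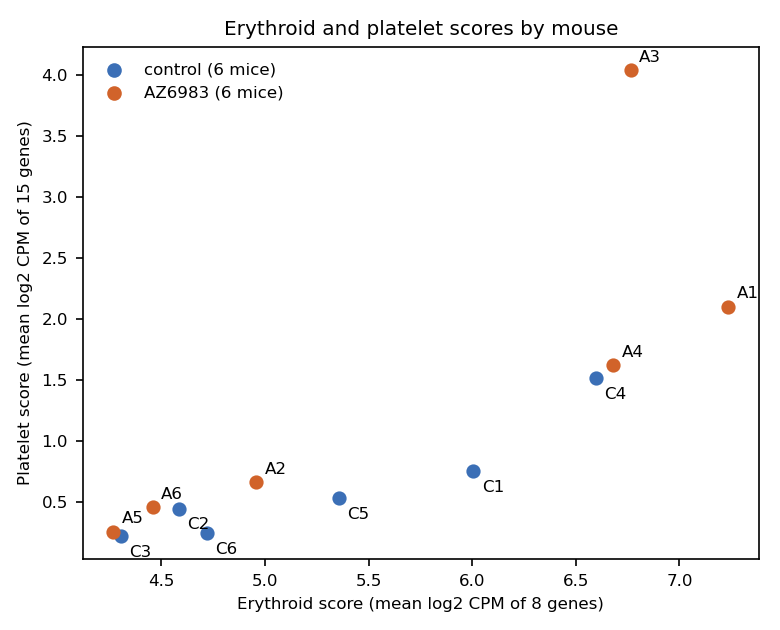
Platelet score against erythroid score for the 12 mice, both in mean log2 CPM. The mice lie along a rising line from A5 and C3 to A1, and A3 stands above it with a platelet score of 4.04.

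The comparison of the 6 AZ6983 with the 6 control mice asks whether these transcripts differ with stimulation of the receptor. No member passed the 10% FDR of edgeR's quasi-likelihood test, where 0% of all tested genes did, although 1616 genes had an unadjusted p under 0.05. Among platelet genes 8 of 15 had an unadjusted p under 0.05 with the higher level in AZ6983, against 7.38% of all genes tested, and 0 were lower at that p, against 2.81%. Gp1ba, which passed the filter through the AZ6983 group alone, is 1 of these 8. Among erythroid genes 0 of 8 passed that level in either direction. All 23 fitted changes were above 0, with a median log2 fold change of 0.65 for the erythroid and 1.92 for the platelet genes, beside 0.0090 for all genes tested.

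Among erythroid genes the changes were alike in size, and each was less than 2 times its standard error. The log2 fold change was 0.63 ± 0.66 (SE, n = 6 per group, edgeR adjusted p = 0.730) for Hbb-bs, and the 3 other globins were at 0.61 to 0.73. Slc4a1 had the largest, 0.97 ± 0.49 with an adjusted p of 0.514 in edgeR. Bpgm had the smallest, at 0.42. Leaving out 1 mouse at a time moved the erythroid median from 0.25 without A1 to 1.06 without C4. Without C4, 2 of the 8 genes were higher at an unadjusted p under 0.05, against 5.41% of all genes.

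The share of reads that fell on no gene also differed between the groups, at 10.1% ± 1.55 in controls and 12.8% ± 1.36 in AZ6983 mice (SD, n = 6), and it was lower in mice with high erythroid scores in both groups (r = -0.615 in controls and -0.694 in AZ6983 mice, as descriptions). With this share as a covariate, the erythroid median was 1.9999 and 8 of 8 erythroid genes, with 11 of 15 platelet genes, had an unadjusted p under 0.05, against 1.87% of all genes in that direction. Gp1ba, in the test through the AZ6983 group alone, was among the 11. The adjusted p of every member was then 0.9998. Why the share differs was not tested.

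Among platelet genes Gp5 had the largest log2 fold change, 2.54 ± 0.85 (edgeR unadjusted p = 0.0106, adjusted p = 0.450). Tubb1 (2.40 ± 0.89), Gp9 (2.32 ± 0.90), Ppbp (2.26 ± 0.88), Treml1 (2.20 ± 0.86), Gp1ba (2.003 ± 0.42), Itga2b (1.92 ± 0.70) and Nfe2 (1.32 ± 0.45) were the others with an unadjusted p under 0.05, and none of their adjusted values was under 0.394. Gp6 was at 2.07 ± 0.96 and Pf4 at 0.32 ± 0.26. With limma-voom 3 of the 15 platelet genes, Gp1ba, Gp5 and Nfe2, had an unadjusted p under 0.05, against 6.62% of all genes. Here too Gp1ba was in the test through the AZ6983 group alone.

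These sizes turned on 1 mouse. Without A3 the platelet median was 0.57, and 2 of 15 genes, Gp1ba and Nfe2, kept an unadjusted p under 0.05, against 7.74% of all genes. Pf4 then stood at -0.07. Without A1 and A3 together, a choice made after their values were seen, the platelet median was 0.12, the erythroid median was -0.26, and 1 of 15 platelet genes, Gp1ba, had an unadjusted p under 0.05, against 10.6% of all genes. Of the fitted changes 8 of 15 platelet and 2 of 8 erythroid ones were then above 0. Without A1 alone the platelet median was 1.96. Gp1ba, which is in each of these platelet counts, passed the filter through the AZ6983 group alone.

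**Figure D4:**
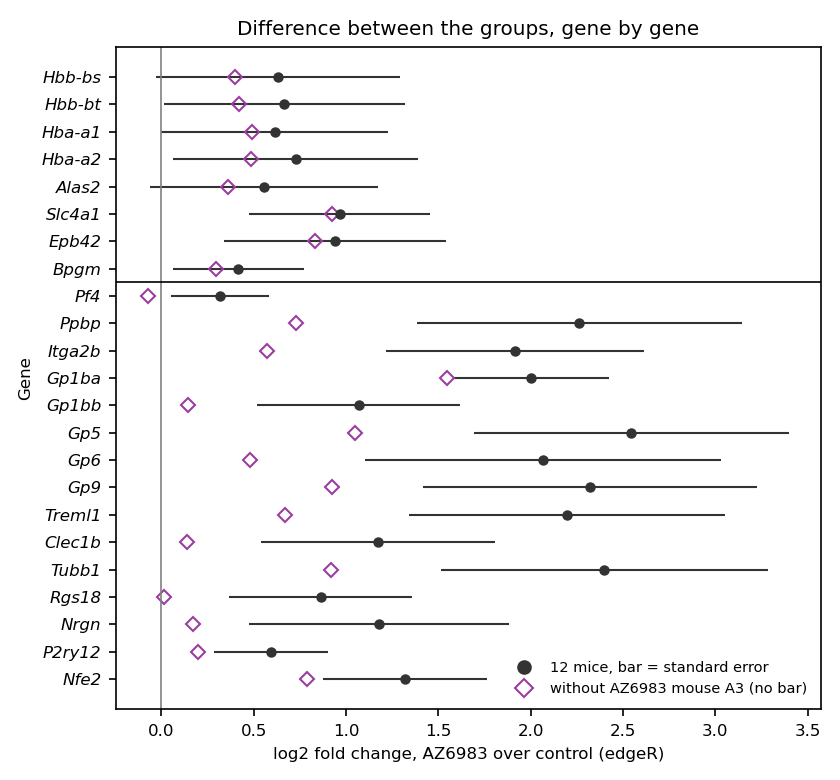
Log2 fold change of each tested gene, AZ6983 over control, from edgeR (filled circles with standard errors, 12 mice) and without mouse A3 (open diamonds). Without A3 the platelet changes run from -0.07 (Pf4) to 1.55 (Gp1ba), with a median of 0.57 against 1.92 over 12 mice.

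Gp1ba was the 1 member whose groups did not overlap. It encodes the α chain of glycoprotein Ib, which binds von Willebrand factor, and lies at chr11:70639122-70642036. Its counts were 6, 2, 5, 5, 3 and 6 in C1 to C6 and 20, 10, 40, 16, 11 and 11 in A1 to A6. That every AZ6983 mouse was above every control in CPM held for 0.259% of all genes tested. Gp1ba entered the test with 0 of 6 controls and 6 of 6 AZ6983 mice at the filter's level. Any gene that enters in this way has its groups apart in CPM before TMM. The filter thus fixed this separation, and the 0.259% does not measure how rare it is for such a gene. The log2 fold change was 2.003 ± 0.42 (edgeR unadjusted p = 0.00040, adjusted p = 0.394). DESeq2 gave 2.02 with an adjusted p of 0.0458. It called 1 member, Gp1ba, against 0.523% of the 17592 genes with an adjusted p, and Kel, Klf1 and Rhag had none. The paper's own list, from the same mice and tool, already gives Gp1ba as raised, so this repeats its call and is not independent of it. The adjusted p ran from 0.0458 to 0.9998 over the settings tried, and without A1 and A3 together the log2 fold change was 1.34. These are counts of 2 to 40 per mouse, and the gene was in the test through the AZ6983 group alone.

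The receptor that contains this chain has 3 others, Gp1bb, Gp5 and Gp9, and their groups overlapped. Gp5 had 9, 5, 2, 20, 15 and 5 counts in C1 to C6 and 27, 18, 215, 42, 9 and 9 in A1 to A6. Gp9 had 34, 19, 12, 65, 25 and 6 counts in controls and 123, 22, 508, 104, 11 and 20 in AZ6983 mice. Gp1bb had 28 to 58 counts in controls and 19 to 259 after AZ6983, and its fitted log2 change was 1.07 ± 0.55 (edgeR adjusted p = 0.520). Per 100 counts of these 3 chains together, Gp1ba was at 3.50 to 10.2 in controls. Within that range were A1, A3 and A4, at 8.97, 4.07 and 7.77, and above it were A2, A5 and A6, the AZ6983 mice with low platelet scores, at 12.2, 28.2 and 16.9. This ratio was looked at after the values were seen and rests on 11 or fewer Gp1ba counts in each of A2, A5 and A6.

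**Figure D5:**
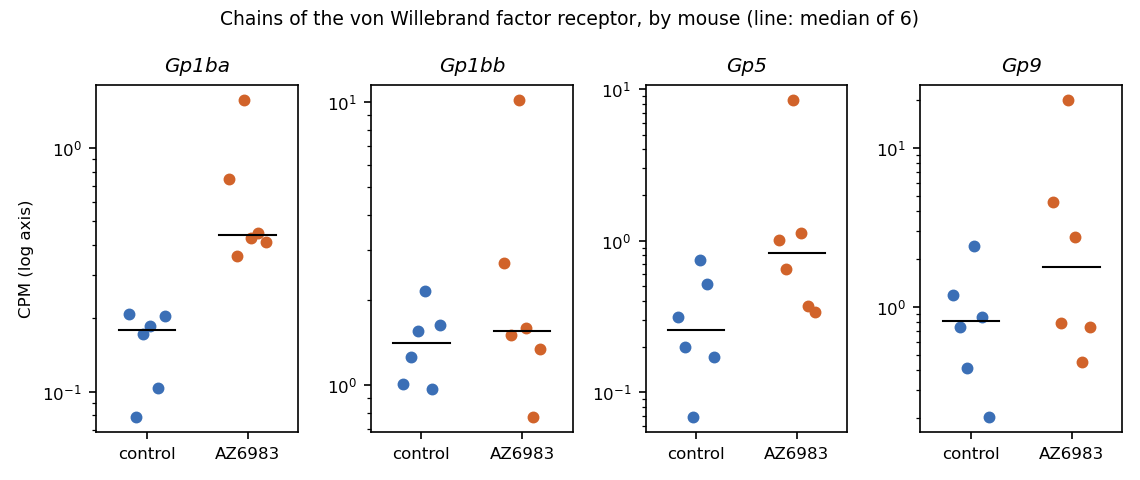
CPM of the 4 receptor chains in each mouse, on log axes, with the median of 6 mice as a line. For Gp1ba the groups do not overlap, and for Gp1bb, Gp5 and Gp9 they do.

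Other genes of the same cells, from lists that hold no member, were read in the same fit. Of 19 tested genes of the red cell membrane, haem pathway and erythroid factors, 16 had a fitted change above 0, with a median log2 fold change of 0.28. At an unadjusted p under 0.05 in edgeR, Xpo7 (log2 fold change 0.17) was higher and Tfr2 (-0.84) lower. All genes passed that p at 7.38% and 2.81% in those directions, and 0 of the 19 passed 10% FDR. Of 23 tested genes of platelets, 22 were above 0 with a median of 0.28, and 5 had an unadjusted p under 0.05, against 7.38% of all genes, with P2rx1 (0.46), Cd226 (1.44) and F5 (1.43) the smallest p. Without A3 the count was 1 of 23, against 7.74% of all genes, with 18 above 0 and a median of 0.14. In A3 these 23 genes were at 1.01-fold to 9.22-fold of the other mice, with Cd226 on top and Tbxa2r at the bottom. P2rx1 was at 1.54-fold there, and at 26.1 to 52.3 CPM over the 12 mice. Xpo7 ran from 45.5 to 63.6 CPM. Genes of these lists can be expressed by other cells of the aorta too, and the part of those cells was not tested. Of the embryonic globins only Hbb-y had a row, and it was at 0 in 9 of 12 mice and at most 0.078 CPM.

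Among the genes outside the list whose log2 CPM followed the erythroid score most closely over 12 mice were Fam46c (r = 0.979), Ube2l6 (0.976), Slc25a37 (0.973), the mitochondrial iron importer mitoferrin-1, Mkrn1 (0.968), Apol11b (0.961), Dcaf12 (0.951) and Isg20 (0.933). For the platelet score they were Alox12 (0.980), the platelet 12-lipoxygenase, Mfsd2b (0.967), Pls1 (0.961), Ctla2a (0.957), Cd226 (0.948), Ctla2b (0.947), F5 (0.930), coagulation factor V, and Srgn (0.923), serglycin. Without A3 the second set ran from 0.757 (F5) to 0.934 (Alox12), and the genes named for the erythroid score from 0.927 (Isg20) to 0.976 (Fam46c). These genes were chosen for their high r and carry no test.

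Markers of other cells were set beside the scores, with log2 fold changes in brackets after the gene. Neutrophil genes had 12 of 14 tested members with an unadjusted p under 0.05 and the higher level in AZ6983 (log2 fold changes of 1.66 for Ltf, 1.13 for Csf3r and 1.94 for Ngp, which had the smallest p), against 7.38% of all genes, and 0 passed 10% FDR in edgeR. The paper's own list, from DESeq2 at 10% FDR, gives Ltf, Csf3r and Ngp as raised, with other neutrophil genes. It also gives Gp1ba and Vwf as raised and Ibsp as lowered. The neutrophil genes summed to 39.9 to 91.0 CPM in controls and 55.9 to 309 CPM in AZ6983 mice. S100a8 had 97 to 425 counts in controls and 252 to 2257 in AZ6983 mice, and S100a9 had 146 to 745 and 348 to 2856. Both were highest in A6, where the erythroid and platelet scores were low, and in A3 the neutrophil genes were at a median of 3.19-fold of the other mice. Macrophage genes, at 799 to 913 and 662 to 1011 CPM summed, had 0 of 12 at that p, and in A3 they were at 0.961-fold to 1.48-fold. Adgre1 had 862 to 1491 counts in controls and 792 to 1466 in AZ6983 mice, and C1qa 2572 to 3092 and 1800 to 3702.

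The T cell genes summed to 3.53 to 35.2 CPM in controls and 9.10 to 1228 CPM in AZ6983 mice, with the top value in A4, where Rag1 had 21669 counts. The next AZ6983 mouse was A6 at 49.0 CPM, the other 4 lay within the control range, and the median was 16.7 CPM in AZ6983 mice and 19.8 in controls. All 9 tested had an unadjusted p under 0.05 with the higher mean in AZ6983, against 7.38% of all genes, and the smallest p were those of Cd8a (3.72), Themis (3.62) and Cd8b1 (3.46). The mast cell genes summed to 59.9 to 74.8 and 65.5 to 97.8 CPM, with Hdc (0.57) the 1 of 10 at that p, Cpa3 at 298 to 433 and 312 to 621 counts and Mcpt4 at 196 to 296 and 214 to 420. The endothelial genes summed to 1125 to 1322 and 1235 to 1442 CPM, and Vwf (0.38), whose product Gp1ba binds, and Tie1 (0.16) were the 2 of 10 at that p. All genes passed that p at 7.38% for a higher and 2.81% for a lower level in AZ6983. Smooth muscle genes summed to 14432 to 19300.3 and 11341 to 19280.4 CPM, with Lmod1 (-0.29) the 1 of 8 at that p. The part of these cells in the red cell and platelet values was not tested.

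Blood left in the vessel and marrow carried in with it are not distinguished by the labels. Of 12 genes of marrow progenitors, 5 were tested and 0 had an unadjusted p under 0.05 in edgeR. These 5 were Cd34, Cpa3, Kit, Flt3 and Ms4a2, and Cpa3, Kit and Ms4a2 are also in the mast cell list. The others, Mpo and Elane among them, were under the filter. The 12 genes summed to 245 to 276 CPM in controls and 248 to 314 CPM in AZ6983 mice. Most of this was Cd34, at 215 to 246 and 201 to 281 CPM, so the sum says little of the other genes. Mpo and Elane, made in the marrow by granulocyte precursors, had 0 to 34 and 0 to 12 counts, and both were highest in A5, the mouse with the lowest erythroid score. In A3 they had 4 and 1 counts and in A1 17 and 4. Prtn3, a granule protease of the same precursors, was highest in C4, with 17 counts, had 14 in A1, 11 in A3 and 7 in A5, and ran from 1 to 17 over the mice. Ctsg, another, had 0 to 11 counts and was highest in A5. The bone genes summed to 427 to 576 and 271 to 531 CPM, and nearly all of this was Sost, at 390 to 549 and 241 to 508 CPM. Of 5 tested, 2 were lower in AZ6983 at an unadjusted p under 0.05 in edgeR, Ibsp (-2.99) and Phex (-0.30), against 2.81% of all genes. Ibsp had 286 and 323 counts in C6 and C5 and 7 to 45 in the other mice, and Bglap, osteocalcin, had 0 to 2.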

How the data were processed

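Total RNA of thoracic aorta was depleted of ribosomal RNA, made into stranded libraries and sequenced by the authors as pairs of 75 bases. The authors deposited raw counts per gene. Per the submitters' processing notes, CASAVA 1.8.2, STAR 2.5.2b, HTSeq 0.6.1p1 and mm10 were used, and the strand setting and annotation are not given in the sources used here. The 3 rows that name no gene were left out. They held 8.02% to 14.9% (no gene), 18.1% to 23.2% (several places) and 0.606% to 0.698% (several genes) of a mouse's reads.

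Groups came from sample titles. edgeR 4.0.16 in R 4.3.3 was fitted to all 12 mice (TMM, filterByExpr, quasi-likelihood, two-sided, Benjamini-Hochberg, 10% FDR), and DESeq2 1.42.0, the authors' tool, limma-voom (limma 3.58.1), RLE scaling, no filter, the no-gene covariate and each mouse left out were alternatives. These steps were checked on simulated counts. The standard errors given with edgeR changes were worked back from the change and the F value of its test. Samples are separate mice, and all 66 pairs of libraries differed beyond counting noise. Positions, exonic lengths and shared windows came from GENCODE M21, in which all 28 symbols matched, and promoters from RefSeq.

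The members and lists were chosen with earlier results of these data known. Named are all members, the defining markers and smallest p-values of other lists, and the 8 genes most like each score, of which 1 is not reported here. Tbxa2r, Prtn3, Ctsg, Cd34, Kit, Flt3 and Ms4a2 were named after their values were seen.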

Additional observations from a re-analysis of the deposited data

Results flagged for a closer look

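The highest and lowest mouse of each group were compared with the rest of that group for 23 tested genes and 2 scores, in 50 groups of 6. A mouse was marked when its gap to the nearest value took a larger share of the group's range than Dixon's critical value for 6 mice, which chance alone would give in about 2.5 of 50 groups, and 3 were marked. Pf4 was high in A3 among the AZ6983 mice, at 5.67 log2 CPM against 3.91 to 4.39 in the other 5. Gp5 was high in A3 too, at 3.09 against -1.30 to 0.25. Itga2b was high in C4 among the controls, at 2.84 against 1.55 to 1.75. C4 also had the highest erythroid and platelet scores of the control mice.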

How the results depend on the processing

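The count of genes called at 10% FDR, 0 in edgeR with 1616 at an unadjusted p under 0.05, was 92 with DESeq2, 0 to 27 with 1 mouse left out (27 without A5, 1 without C6 or A1) and 8 without A1 and A3 together. Members called were 1 with DESeq2. Erythroid genes with an unadjusted p under 0.05 were 2 of 13 with DESeq2 (Slc4a1 and Gata1), against 5.14% of all genes higher at that p. They were 1 of 13 with no filter (Gata1), against 6.45%, and 8 of 8 with the no-gene covariate, against 1.87%. With 1 mouse left out they were 0 to 2 of 8, with 2 without C4, against 5.41%. Platelet genes at that p were 3 of 15 with limma-voom, against 6.62%, and 1 of 15 without A1 and A3, against 10.6%. With 1 mouse left out they ran from 2 without A3, against 7.74%, to 12 without A5, against 5.85%. Gp1ba, which passed the filter through the AZ6983 group alone, is in each of these platelet counts. The erythroid median log2 fold change was 1.9999 with the covariate, and the platelet median was 0.57 (without A3) to 2.11 with 1 mouse left out and 0.12 without A1 and A3. The correlation of the scores was 0.778 to 0.952 with 1 mouse left out. Without A1 and A3 the log2 fold change turned below 0 for Hbb-bs (-0.33), Hbb-bt (-0.28), Hba-a1 (-0.26), Hba-a2 (-0.27), Alas2 (-0.28), Bpgm (-0.066), Pf4 (-0.10), Gp1bb (-0.13), Gp6 (-0.20), Clec1b (-0.15), Rgs18 (-0.23), Nrgn (-0.37) and P2ry12 (-0.0038), and Pf4 ran from -0.072 (without A3) to 0.40 with 1 mouse left out. The causes were not tested. Of the other values, 399 of single genes kept their direction and their side of the threshold, and 104 of the summary results stayed within 1.5 times (counts) 1 SD between mice (medians) or 1 jackknife standard error (the correlation), the erythroid median without A1 and A3 among them although it turned to -0.26. Depth limits Gp1ba, Klf1, Gata1, Rhag, Kel and Ermap, which had few counts.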
